A study of Mus musculus with 12 samples.

Results

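Phosphofructokinase sets the pace of glycolysis, and 10 mouse genes around it were followed in white adipocytes treated with a β-adrenergic agonist with or without inhibitors of lipolysis. They were the rows of the gene count table, out of 20295, named Pfkfb1, Pfkfb2, Pfkfb3, Pfkfb4, Pfkl, Pfkm, Pfkp, Fbp1, Hk1 and Hk2. Pfkfb3 was selected on its fall in cells given the agonist together with the inhibitors against cells given the agonist alone. Its values in every comparison that involves agonist-treated libraries are therefore a description with no test. The SE and intervals printed with them make no allowance for that choice and are not to be read as a test. The other genes were added for their place in the pathway, with earlier results of these data known.

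Hexokinases trap glucose in the cell as glucose 6-phosphate. Phosphofructokinase then commits it to glycolysis by making fructose 1,6-bisphosphate, and fructose bisphosphatase runs that step backwards in gluconeogenesis. The PFKFB enzymes carry a kinase and a phosphatase in one protein and make or remove fructose 2,6-bisphosphate, a small molecule that activates phosphofructokinase and inhibits fructose bisphosphatase. In fat cells glycolysis supplies glycerol 3-phosphate for storing fatty acids and, under β-adrenergic stimulation, lactate and ATP.

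The libraries came from mature epididymal white adipocytes of lean male C57/BL6J mice, isolated by collagenase and flotation and held in a hydrogel for 2 days at 50000 cells per well. Each of 4 groups had 3 libraries. DMSO cells received vehicle. ISO cells received isoproterenol, an agonist of all β-adrenergic receptors, for 3 h. Lip cells had the lipases ATGL and HSL blocked, with Atglistatin and CAY10499 by the study's methods, and Lip+ISO cells received both inhibitors before isoproterenol. The sample titles and the study's text name isoproterenol for these cells. A legend of the study also names isoproterenol for the plotted genes, but its treatment line names SR-3420, a ligand of ABHD5 that activates lipolysis. The titles were followed here. Flotation enriches adipocytes but does not sort them, and these are explanted cells from whole fat pads without a genetic change. Levels are given as CPM, the share of a library's counts after TMM scaling. Tests are edgeR quasi-likelihood F-tests, with Benjamini-Hochberg adjustment over all 13543 tested genes and a limit of 0.05 for a gene to pass. The main fit does not pair libraries by replicate number, and a fit with a block for that number is an alternative.

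The libraries held 22632220 to 43707557 counts, and the limit that a count of 0 allows, 3 counts, lay between 0.0678 and 0.132 CPM. The 8 adipocyte markers summed to 23000 to 35800 CPM, and none was at 0. Of these, 2 were lower in ISO against DMSO (Lep and Pparg), 2 in Lip+ISO against Lip (Lep and Lipe) and 3 in Lip+ISO against DMSO (Lep, Lipe and Plin1, with a list median log2 fold change of −0.38). In Lip+ISO against ISO 1 was higher, Pparg, and 1 lower, Lipe. The macrophage list summed to 48.6 to 63.8 CPM in DMSO, 106 to 158 in ISO, 51.8 to 58.5 in Lip and 67 to 117 in Lip+ISO, and 6 of its 7 tested genes passed as higher in ISO against DMSO. The stromal list summed to 366 to 646 CPM in DMSO against 715 to 937 in ISO, with 3 of 6 genes higher, and the endothelial list to 86 to 166 against 215 to 390, with 1 of 6 higher. The stromal sums were 486 to 510 CPM in Lip and 441 to 612 in Lip+ISO. The endothelial sums were 42 to 147 and 71.8 to 206 CPM there. The mesothelial list summed to 21.0 to 46.8 CPM in DMSO and 55.4 to 65.9 in ISO, with 1 of 5 higher. Its sums were 12.8 to 54.7 CPM in Lip and 37.3 to 46.2 in Lip+ISO. The 6 skeletal muscle markers summed to 94.7 to 141 CPM in DMSO, 53.8 to 104 in ISO, 126 to 281 in Lip and 50 to 87.9 in Lip+ISO. The erythrocyte and epididymis lists summed to at most 0.671 and 0.477 CPM. In Lip+ISO against ISO, 3 of 6 stromal genes and 1 of 6 endothelial genes were lower. Of all tested genes, 12.3% were higher and 13.9% lower in ISO against DMSO, and 4.36% and 4.59% in Lip+ISO against ISO. In Lip+ISO against Lip 15.8% were lower and in Lip+ISO against DMSO 16.2%. The part of these other cells in the results below was not tested, and in such bulk samples fewer cells of a type and less RNA per cell cannot be told apart.

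The bases just upstream of the 2 genes whose levels moved farthest, Pfkfb3 down and Hk2 up, are shown as context for their regulation. Both are 250 bases of NCBIM37 (mm9), read 5′ to 3′ on the minus strand that codes for the gene, from the most upstream protein-coding start of the GENCODE annotation. Capitals mark CACGTG, an E-box, and ACGTG, the core of a hypoxia response element, on either strand, and TGACG, the 5-base part of a cAMP response element. An E-box always contains ACGTG on both strands.
Pfkfb3, chr2:11423729-11423978: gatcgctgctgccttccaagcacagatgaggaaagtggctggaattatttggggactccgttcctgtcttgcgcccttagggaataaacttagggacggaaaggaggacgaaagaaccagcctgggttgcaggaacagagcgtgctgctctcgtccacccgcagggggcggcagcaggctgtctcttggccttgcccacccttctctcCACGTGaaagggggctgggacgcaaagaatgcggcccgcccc
Hk2, chr6:82724449-82724698: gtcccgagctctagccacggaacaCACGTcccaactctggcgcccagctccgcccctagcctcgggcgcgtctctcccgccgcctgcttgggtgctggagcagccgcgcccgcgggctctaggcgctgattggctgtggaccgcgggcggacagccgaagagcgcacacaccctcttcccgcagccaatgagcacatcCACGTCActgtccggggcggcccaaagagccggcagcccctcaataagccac

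The Pfkfb3 window held the E-box 42 bases before the start and no TGACG, and the same E-box lay before 3 annotated starts farther downstream. Before those starts, at 11423652, 11423694 and 11423702, a TGACG lay 71, 29 and 21 bases upstream. The window before a further annotated Pfkfb3 start, at 11423327, the start of 3 protein-coding transcripts, held none of these sequences. The Hk2 window held ACGTG on the opposite strand 226 and 52 bases before the start, the second overlapping a TGACG 50 bases before it. Among 20292 windows of this length upstream of the genes in the table, 6.92% held CACGTG, 18.2% held ACGTG, 21.2% held TGACG and 2.14% held the full element TGACGTCA. An E-box also lay upstream of at least one annotated start of Pfkfb2, Pfkm and Hk2 (for Hk2, 209 bases before the start at 82723357), genes with several starts and so several windows each. The row that was counted for Pfkfb3, a RefSeq transcript, begins farther upstream, at 11475556, where the GENCODE annotation has no protein-coding start. Its window held TGACG 112 and 62 bases and ACGTG 60 bases before that position. These matches are letters in a window and say nothing about binding.

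Pfkfb3, the isozyme whose kinase activity far exceeds its phosphatase activity, was abundant in vehicle-treated adipocytes and low when isoproterenol met blocked lipases. It stood at 656, 478 and 501 CPM in DMSO, 574, 331.5 and 379 in ISO, 396, 309 and 235 in Lip, and 42.2, 43.3 and 76.7 in Lip+ISO. All Lip+ISO libraries lay far below all others, all Lip libraries lay below all DMSO libraries, and the ISO and DMSO libraries overlapped. On the log2 scale the Lip+ISO level was lower than the ISO level by −2.98 ± 0.28 (SE), which is 0.126 times that level. Against Lip the log2 difference was −2.54 ± 0.28 and against DMSO −3.33 ± 0.29.

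The response of Pfkfb3 to isoproterenol alone was small beside this. ISO against DMSO gave a log2 difference of −0.35 ± 0.26, with a 95% interval of −0.92 to 0.22. The isoproterenol response in the presence of the inhibitors minus that in their absence was −2.19 ± 0.38. Lip against DMSO uses none of the libraries on which Pfkfb3 was chosen, and there the log2 difference of −0.80 ± 0.26 did not pass (edgeR adjusted p = 0.774, unadjusted p = 0.0101, n = 3 per group). The Lip and DMSO libraries did not overlap, but the share of all tested genes for which this holds was not counted. In that comparison 0.00738% of all tested genes passed as higher and 0.0443% as lower.

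**Figure D1:**
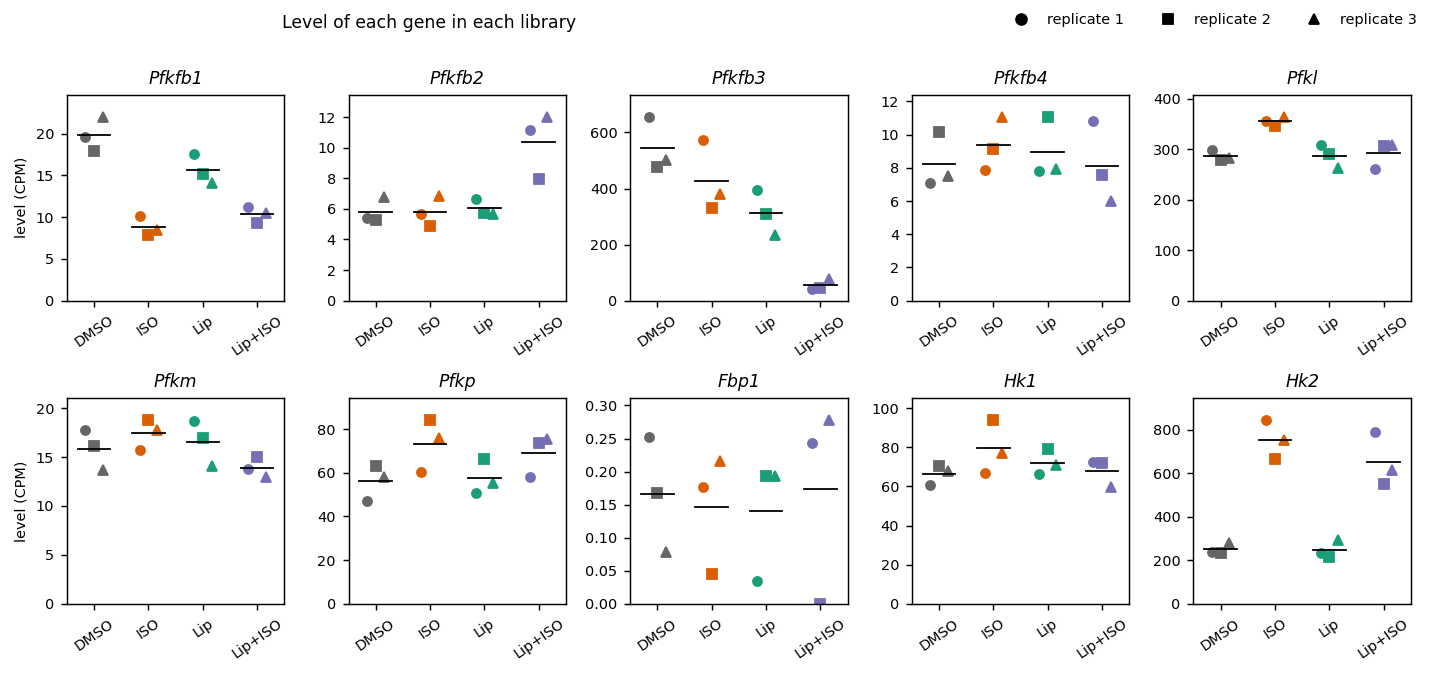
Level of each of the 10 genes in CPM (vertical axes, each from 0) in each library of the 4 groups (horizontal axis). Symbols give the replicate number and black lines the group means. Pfkfb3 lies at 42.2 to 76.7 CPM in Lip+ISO and at or above 235 CPM elsewhere, and Hk2 lies at or above 550 CPM in both groups given ISO and at or below 294 CPM in the others.

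Pfkfb1, the isozyme best known from liver and muscle, fell with isoproterenol alone. Its levels were 19.6, 17.9 and 22.0 CPM in DMSO and 10.1, 7.85 and 8.48 CPM in ISO. They were 17.6, 15.2 and 14.0 CPM in Lip and 11.2, 9.34 and 10.5 CPM in Lip+ISO. Both groups given isoproterenol lay wholly below both groups without it. The log2 fold change was −1.17 ± 0.14 in ISO against DMSO (edgeR adjusted p = 6.16e-05) and −0.59 ± 0.14 in Lip+ISO against Lip (edgeR adjusted p = 0.00613). The difference between these 2 responses, 0.58 ± 0.19, did not pass (edgeR adjusted p = 0.189), with an interval of 0.16 to 1.00. The summed skeletal muscle list was likewise lower in Lip+ISO than in Lip without overlap, while ISO and DMSO overlapped, and its 1 tested gene, Acta1, passed as lower in Lip+ISO against Lip (−1.36, edgeR adjusted p = 0.00635). Its part in the Pfkfb1 result was not tested. The call with the inhibitors was lost, at an adjusted p of 0.0754, when replicate 2 was left out of every group.

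Pfkfb2, the isozyme best known from heart and controlled by phosphorylation, was higher where isoproterenol and the inhibitors met. It stood at 5.40, 5.25 and 6.77 CPM in DMSO, 5.64, 4.86 and 6.88 in ISO, 6.67, 5.73 and 5.70 in Lip, and 11.2, 7.93 and 12.03 in Lip+ISO. The Lip+ISO libraries lay above all 9 others. Pfkfb2 rose by a log2 fold change of 0.78 ± 0.19 against Lip (edgeR adjusted p = 0.0089) and of 0.85 ± 0.20 against ISO (edgeR adjusted p = 0.0169). ISO against DMSO gave −0.01 ± 0.20 (edgeR adjusted p = 0.978), with a sign that turned under another scaling. The difference between the responses to isoproterenol, 0.79 ± 0.28, did not pass (edgeR adjusted p = 0.211).

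The rise of Pfkfb2 against ISO rested on few reads, 125 to 303 per library. It was lost in 5 of 15 fits that left out libraries, those without ISO replicate 2, without Lip+ISO replicate 3, or without replicate 1, 2 or 3 of every group, with adjusted p up to 0.117. Against Lip it was lost in 2 of 15, without replicate 1 or 3 of every group, with adjusted p up to 0.0967. Pfkfb2 overlaps Yod1 on the other strand, and the strand setting of the counting is not given in the sources used here.

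Pfkfb4, a further isozyme that hypoxia is known to induce, stayed between 5.997 and 11.1 CPM in all libraries, and the ranges of all 4 groups overlapped. Its log2 fold change was 0.19 ± 0.24 in ISO against DMSO (edgeR adjusted p = 0.589) and −0.20 ± 0.24 in Lip+ISO against ISO (edgeR adjusted p = 0.648). The intervals, −0.32 to 0.70 and −0.71 to 0.31, leave room for changes of moderate size.

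Divided by transcript length, the 4 PFKFB genes summed to 133 ± 20.4 CPM per kb in DMSO (SD, n = 3), 101 ± 27.9 in ISO, 80.7 ± 18.4 in Lip and 22.9 ± 4.37 in Lip+ISO. Pfkfb3 made up 88.1 ± 2.07% of this sum in DMSO, 90.3 ± 2.07% in ISO, 83.1 ± 2.4% in Lip and 49.8 ± 9.10% in Lip+ISO. The share of Pfkfb1 ran from 5.12 ± 0.66% in ISO to 26.5 ± 4.07% in Lip+ISO, and that of Pfkfb2 from 1.26 ± 0.28% in DMSO to 12.8 ± 1.43% in Lip+ISO. Where Pfkfb3 was lowest, the other isozymes thus held about as much of the family's RNA as it did. The shares are tied to the level that chose Pfkfb3, so they are not tested.

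Phosphofructokinase itself moved little. Pfkl, the liver-type isozyme and the most abundant of the family here, stood at 299, 279 and 282 CPM in DMSO, 356, 345 and 364 in ISO, 309, 290 and 262 in Lip, and 260, 307 and 308 in Lip+ISO. The ISO libraries lay above all others. Pfkl rose in ISO against DMSO by a log2 fold change of 0.31 ± 0.09 (edgeR adjusted p = 0.0196), and with the inhibitors the response was 0.02 ± 0.09 (edgeR adjusted p = 0.888). The difference between the responses, −0.29 ± 0.12, did not pass (edgeR adjusted p = 0.317), nor did Lip+ISO against ISO, −0.28 ± 0.09 (edgeR adjusted p = 0.0621). With the replicate block Pfkl did pass as lower in Lip+ISO against ISO (−0.28, edgeR adjusted p = 0.035). The rise in ISO was lost in 5 of 15 fits that left out libraries, without DMSO replicate 2, DMSO replicate 3 or ISO replicate 3, or without replicate 2 or 3 of every group, with adjusted p up to 0.162.

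Pfkp, the platelet-type isozyme, read 46.9, 63.1 and 58.2 CPM in DMSO, 60.2, 84.2 and 75.8 in ISO, 50.6, 66.5 and 55.4 in Lip, and 58.3, 73.6 and 75.3 in Lip+ISO. Within each group replicate 1 was the lowest, and the groups overlapped. Its log2 fold change of 0.39 ± 0.15 in ISO against DMSO did not pass (edgeR adjusted p = 0.0776), but with a block for the replicate number it did (0.39, edgeR adjusted p = 0.000896). The same held for Lip+ISO against Lip, 0.27 ± 0.15 (edgeR adjusted p = 0.237, or 0.00834 with the block). Pfkp overlaps Pitrm1 on the other strand, and 6.73% of the 50-base windows of its transcripts also occur in Pitrm1.

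Pfkm, the muscle-type isozyme, ranged from 13.0 to 18.8 CPM and passed in no comparison. Its log2 fold change was 0.14 ± 0.13 in ISO against DMSO (edgeR adjusted p = 0.485) and −0.33 ± 0.14 in Lip+ISO against ISO (edgeR adjusted p = 0.165). The Lip+ISO and ISO libraries did not overlap, but the share of all tested genes for which this holds was not counted. Per length, Pfkl held 77.1 to 78.9% of the 3 phosphofructokinase genes on average in each group, Pfkp 15.3 to 18.0% and Pfkm 4.89 to 5.96%. The makeup of the enzyme's RNA therefore differed between groups by less than 3 percentage points for each isozyme.

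**Figure D2:**
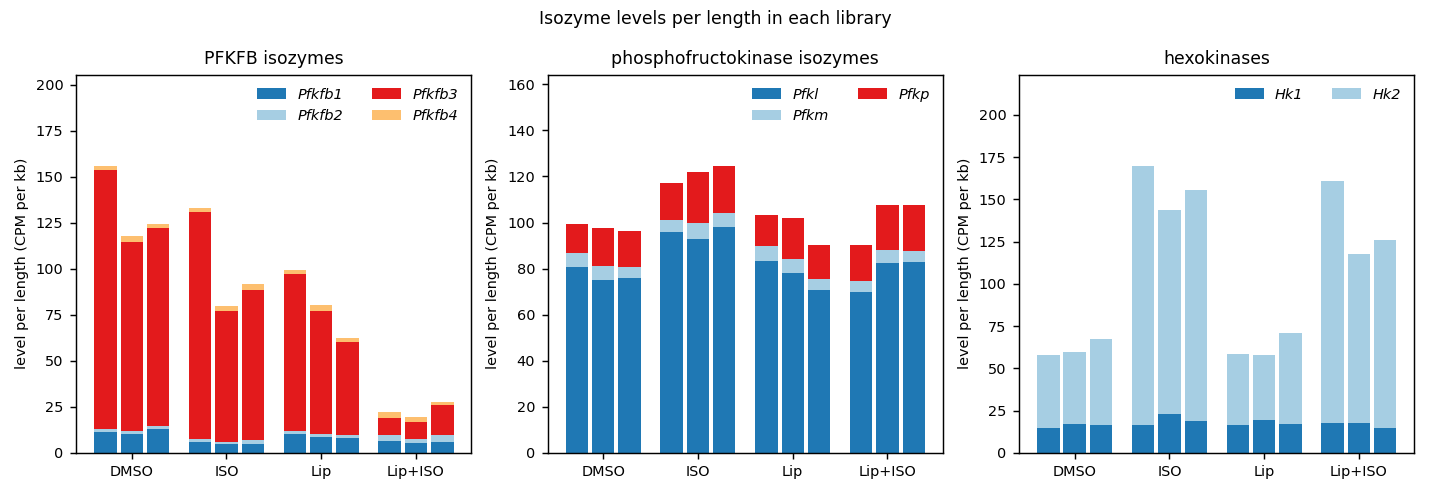
Level per transcript length in CPM per kb (vertical axes, from 0) of the PFKFB genes, the phosphofructokinase genes and the hexokinase genes, stacked, with 1 bar per library, replicates 1 to 3 from left in each group. The PFKFB stack averages 133 CPM per kb in DMSO and 22.9 in Lip+ISO, and the hexokinase stack 61.6 in DMSO and 156 in ISO.

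Hk2, the insulin- and exercise-responsive hexokinase of muscle and fat, had the largest rise among the tested genes of the set. It stood at 237, 234 and 280 CPM in DMSO, 845, 667 and 754 in ISO, 231, 213 and 294 in Lip, and 789, 550 and 615 in Lip+ISO. Every library given isoproterenol lay above every library without it. The summed macrophage list above was likewise higher in both groups given isoproterenol without overlap. Of its 7 tested genes, 3 passed as higher in Lip+ISO against Lip, and its part in the Hk2 result was not tested. Hk2 rose by a log2 fold change of 1.59 ± 0.16 in ISO against DMSO (edgeR adjusted p = 1.22e-05) and of 1.41 ± 0.16 in Lip+ISO against Lip (edgeR adjusted p = 2.02e-05). Both calls held in all 15 fits that left out libraries. The responses differed by −0.19 ± 0.21, with an interval of −0.65 to 0.28 (edgeR adjusted p = 0.761). With 3 libraries per group a partial loss of the response with the inhibitors was not detected, and a loss of more than 0.65 lies outside the interval.

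Hk1, the housekeeping hexokinase, read 60.5, 70.5 and 67.9 CPM in DMSO, 67.0, 94.0 and 77.3 in ISO, 66.5, 79.0 and 71.0 in Lip, and 72.6, 71.9 and 59.9 in Lip+ISO, with overlap between all groups. Its log2 fold change in ISO against DMSO, 0.26 ± 0.12, did not pass (edgeR adjusted p = 0.135), although it did with the replicate block (0.25, edgeR adjusted p = 0.0478). Per length, Hk2 made up 73.7 ± 2.20% of the RNA of these hexokinases in DMSO and 87.4 ± 3.17% in ISO, and 71.4 ± 4.44% in Lip and 87.5 ± 2.13% in Lip+ISO.

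Fbp1, the gluconeogenic fructose bisphosphatase of liver and kidney, was close to the counting limit. Its counts were 8, 4 and 2 in DMSO, 4, 2 and 5 in ISO, 1, 6 and 7 in Lip, and 6, 0 and 7 in Lip+ISO, 52 in all, and it did not pass the filter on low counts. No difference between groups was detectable at this depth.

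Counted without Pfkfb3, 2 of 8 tested members were higher in ISO against DMSO and 1 was lower, beside 12.3% and 13.9% of all tested genes. With the replicate block 4 were higher, beside 18.8% of all tested genes in that fit. In Lip+ISO against Lip 2 were higher and 1 lower, beside 11.5% and 15.8%, and in Lip+ISO against DMSO 2 were higher and 1 lower, beside 12.2% and 16.2%. With the block, which added Pfkp, 3 were higher in each of these, beside 15.5% and 16.4%. In Lip+ISO against ISO 1 was higher and 0 lower by edgeR, beside 4.36% and 4.59%. DESeq2 and the replicate block each called 1 lower, Pfkl, beside 10.8% of all tested genes lower in the block fit. At an unadjusted p under 0.05 without the block, Pfkl and Pfkm were lower. In Lip against DMSO 0 of 8 passed by edgeR or DESeq2, and Pfkfb1 alone had an unadjusted p under 0.05 (0.0248, log2 fold change −0.34 ± 0.14). For the difference of the isoproterenol response with and without the inhibitors 0 of 8 passed by edgeR or DESeq2, beside 0.901% of genes with a higher and 0.724% with a lower response, and Pfkfb1, Pfkfb2 and Pfkl had an unadjusted p under 0.05. With so few genes these shares do not set the members apart from the rest.

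**Figure D3:**
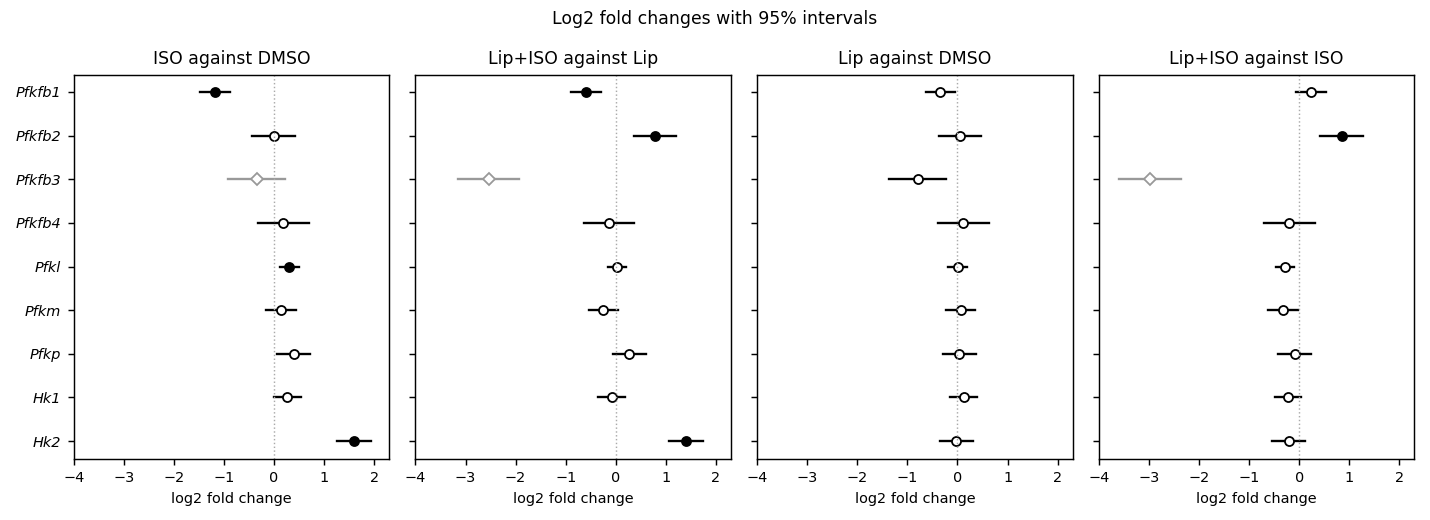
Log2 fold changes (horizontal axes) of the 9 tested genes in 4 comparisons, with 95% intervals as lines. Filled circles passed the test, open circles did not, and grey diamonds mark Pfkfb3 where its choice used libraries of the comparison and no test is given. The grey lines make no allowance for that choice and are not to be read as a test. Hk2 lies near 1.59 and 1.41 in the 2 isoproterenol comparisons, and Pfkfb3 at −2.98 in Lip+ISO against ISO.

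In DMSO the genes ordered per length as Pfkfb3 (117 ± 20.8 CPM per kb, SD, n = 3), Pfkl (77.1 ± 2.92), Hk2 (45.4 ± 4.66), Hk1 (16.2 ± 1.27), Pfkp (14.9 ± 2.21), Pfkfb1 (11.4 ± 1.19), Pfkm (5.64 ± 0.74), Pfkfb4 (2.45 ± 0.50), Pfkfb2 (1.64 ± 0.24) and Fbp1 (0.112 ± 0.059). The neighbours Hk1 and Pfkp, and Pfkp and Pfkfb1, overlapped between libraries. In Lip+ISO, Hk2 came first at 118 ± 22.4 CPM per kb, and the mean of Pfkfb3, 11.6 ± 4.21, was below those of Hk1 and Pfkp, although its libraries overlapped with theirs.

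The steps around these genes gave the setting. Beside the counts below, 12.3% of all tested genes were higher and 13.9% lower in ISO against DMSO. The shares were 11.5% and 15.8% in Lip+ISO against Lip, and 4.36% and 4.59% in Lip+ISO against ISO. With the replicate block, ISO against DMSO gave 18.8% and 19.6%. Of 14 tested genes for the glycolytic steps after phosphofructokinase, 6 were higher and 1 lower in ISO against DMSO (median log2 fold change 0.33, all tested genes 0.00), and 6 were higher and 0 lower in Lip+ISO against Lip, or 1 higher when libraries were scaled by their totals alone. Eno2, an enolase, rose by 1.28 ± 0.35 (edgeR adjusted p = 0.0176), Pgk1, phosphoglycerate kinase, by 0.53 ± 0.12 (edgeR adjusted p = 0.00645) and Gapdh, glyceraldehyde 3-phosphate dehydrogenase, by 0.49 ± 0.10 (edgeR adjusted p = 0.00284), while Gapdhs, its sperm-type form, fell by 1.06 ± 0.34 from 2.62 to 1.24 CPM (edgeR adjusted p = 0.0373). The Eno2 call was lost without DMSO replicate 1, DMSO replicate 3 or ISO replicate 2, and the Gapdhs call without any one DMSO library or ISO replicate 1 or 3. Gapdh, Pgk1 and Pgam1 have near-identical copies elsewhere in the genome, so their counts are uncertain. In Lip+ISO against ISO 0 of the 14 passed by edgeR, while 1 was higher by DESeq2. With the replicate block 2 were higher, beside 8.48% of all tested genes. Without the block, only Gapdh and Bpgm had an unadjusted p under 0.05.

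Among 8 tested genes of hexose entry and its brakes, 1 was higher and 1 lower in ISO against DMSO, or 2 and 1 with the replicate block. The higher one was Hk3, a hexokinase of white blood cells, at 2.76 ± 0.83 CPM in DMSO and 5.49 ± 0.79 in ISO (log2 fold change 1.00 ± 0.31, edgeR adjusted p = 0.0303), a call lost without DMSO replicate 1 or 3 or ISO replicate 2 or 3, and one that moved with the macrophage list above. The lower one was 9630033F20Rik, now called Tigar, whose product removes fructose 2,6-bisphosphate as the phosphatase side of the PFKFB enzymes does. It went from 26.6 ± 1.47 CPM in DMSO to 19.5 ± 2.33 in ISO and stood at 26.3 ± 1.64 in Lip and 26.4 ± 2.86 in Lip+ISO. The fall in ISO was −0.45 ± 0.11 on the log2 scale (edgeR adjusted p = 0.0107), and the rise in Lip+ISO against ISO was 0.44 ± 0.11 (edgeR adjusted p = 0.0288). The rise was lost without ISO replicate 1 or 2 or Lip+ISO replicate 3, and when scaled by library totals alone.

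Of 10 tested transporters and lactate dehydrogenases, 5 were higher and 0 lower in ISO against DMSO (median log2 fold change 0.38), and 3 were lower and 0 higher in Lip+ISO against ISO (median −0.33). Slc2a1, the basal glucose transporter GLUT1, went from 153 ± 21.1 CPM in DMSO to 314 ± 39.4 in ISO, and stood at 161 ± 0.56 in Lip and 157 ± 25.3 in Lip+ISO. It rose by 1.04 ± 0.13 on the log2 scale without the inhibitors (edgeR adjusted p = 0.000103), and its response with them was −0.04 ± 0.13 (edgeR adjusted p = 0.851). The summed stromal, endothelial and mesothelial lists above were likewise highest in ISO without overlap, and their part in the Slc2a1 result was not tested. The lactate exporter Slc16a3 and the lactate carrier Slc16a1 rose by 1.41 ± 0.27 and 1.00 ± 0.08 in ISO (edgeR adjusted p = 0.00213 and 2.17e-06). In Lip+ISO against ISO they were lower by −0.92 ± 0.26 and −0.37 ± 0.08 (edgeR adjusted p = 0.0479 and 0.0108), and the Slc16a3 call was lost in 9 of 15 fits that left out libraries, those without DMSO replicate 1, ISO replicate 2 or 3, Lip replicate 3 or Lip+ISO replicate 1 or 3 among them, and with library totals alone. Slc2a4, the insulin-responsive transporter, did not pass (−0.03 ± 0.19 in ISO, edgeR adjusted p = 0.915).

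Of 14 tested genes of pyruvate fate and gluconeogenesis, 2 were higher and 0 lower in ISO against DMSO, or 4 and 2 with the replicate block, and 2 were higher and 2 lower in Lip+ISO against ISO. All tested genes gave 12.3% and 13.9% in the first comparison, or 18.8% and 19.6% with the block. In the second they gave 4.36% and 4.59%. Pdk4, the kinase that shuts pyruvate dehydrogenase, stood at 422 ± 95.3 CPM in DMSO, 880 ± 78.4 in ISO, 134 ± 25.2 in Lip and 53.7 ± 16.4 in Lip+ISO. Its log2 fold change in Lip+ISO against ISO was −4.04 ± 0.23 (edgeR adjusted p = 8.02e-07), and it was the 1 gene of this list lower in Lip against DMSO (−1.66 ± 0.21, edgeR adjusted p = 0.0142). That call in Lip against DMSO was lost in 7 of 15 fits that left out libraries, those without DMSO replicate 2 or 3, without any one Lip library, or without replicate 1 or 2 of every group, with adjusted p up to 0.628. With the replicate block Pck1 was lower there too (edgeR adjusted p = 0.0251). Pck1, which feeds glyceroneogenesis in fat, was lower in Lip+ISO against ISO by −1.11 ± 0.26 (edgeR adjusted p = 0.0174), and Pdp2, the phosphatase that opposes Pdk4, was higher by 0.87 ± 0.22 (edgeR adjusted p = 0.0275). The Pck1 call was lost without ISO replicate 1 or Lip+ISO replicate 1 or 2, and the Pdp2 call without ISO replicate 2 or 3 or Lip+ISO replicate 3. Of 16 hypoxia-induced genes, 5 were higher and 2 lower in ISO against DMSO, or 6 and 4 with the block, beside the same shares as above. In Lip+ISO against ISO 2 were higher and 3 lower. With the block 5 were lower there, beside 10.8% of all tested genes. Hif1a, the hypoxia-responsive transcription factor, stood at 398 ± 35.3 CPM in DMSO, 598 ± 52.7 in ISO, 355 ± 35.8 in Lip and 323 ± 38.6 in Lip+ISO. It was lower in Lip+ISO against ISO by −0.89 ± 0.11 (edgeR adjusted p = 0.000337). Egln3, which marks the Hif1a protein for destruction, stood at 15.3 ± 1.82, 48.05 ± 10.8, 15.4 ± 3.19 and 89.4 ± 22.1 CPM in the same order. It rose in ISO against DMSO by 1.65 ± 0.21 (edgeR adjusted p = 0.000104). In Lip+ISO against ISO it was higher by 0.90 ± 0.20 (edgeR adjusted p = 0.0137), a call lost without ISO replicate 2 or Lip+ISO replicate 3. The summed stromal, endothelial and mesothelial lists were also lower in Lip+ISO than in ISO without overlap, and their part in the Hif1a result was not tested.

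**Figure D4:**
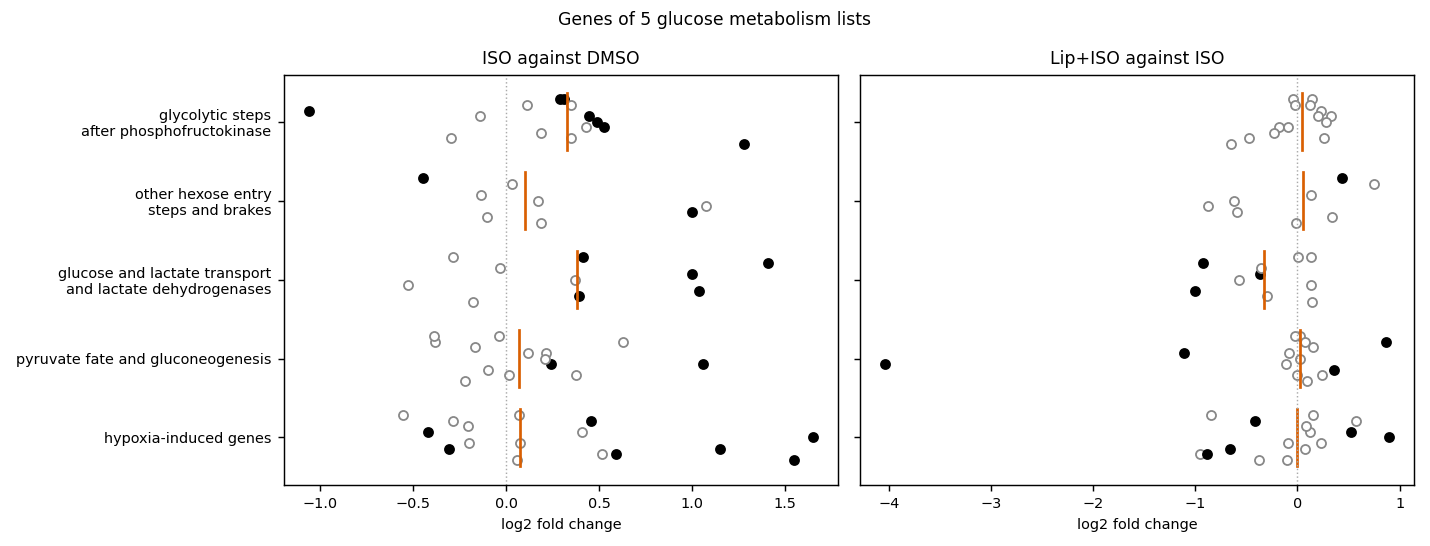
Log2 fold changes (horizontal axes, with different scales) of the tested genes of 5 lists in ISO against DMSO and in Lip+ISO against ISO. Filled points passed the test, and orange bars are list medians. For transporters and lactate dehydrogenases the median is 0.38 in the first comparison and −0.33 in the second.

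The genes whose levels followed Pfkfb3 most closely over the 12 libraries, by Pearson r of log2 CPM, were Fam20c (0.977), Gramd4 (0.971), Prune (0.964), Angptl4 (0.958) and Ruvbl2 (0.958). All libraries share the low Lip+ISO group, which weighs heavily in such a correlation, and by Spearman rho none of these was among the 5 highest. They differ in size. Angptl4, an inhibitor of lipoprotein lipase, went from 1299 ± 123 CPM in DMSO and 1078 ± 70.8 in ISO to 747 ± 60.9 in Lip and 149 ± 28.4 in Lip+ISO, and Ruvbl2, an ATPase of chromatin complexes, only from 26.3 ± 0.49 in DMSO to 18.3 ± 1.00 in Lip+ISO. Among the other members, r with Pfkfb3 was lowest for Pfkfb2 (−0.80) and highest for Pfkm (0.56), with Pfkfb1 at 0.45, Pfkl at 0.31 and Hk2 at −0.45.

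**Figure D5:**
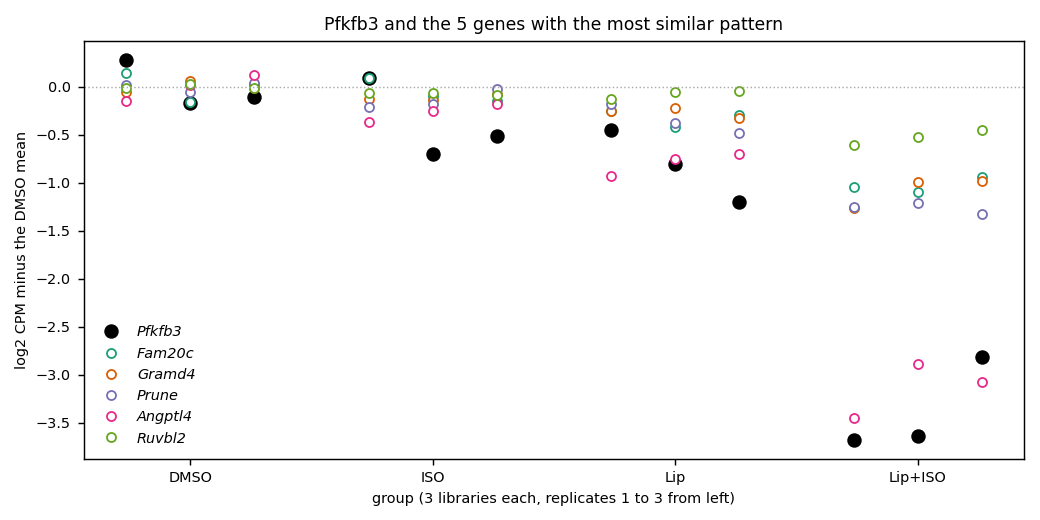
Log2 CPM minus the DMSO mean (vertical axis) in each library of the 4 groups for Pfkfb3 (filled) and the 5 genes with the highest Pearson r with it (open). In Lip+ISO Pfkfb3 and Angptl4 sit far below the others, which fall less than 1.5 below their DMSO mean.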

How the data were processed

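RNA-seq was made from 12 libraries of 4 groups, which the study describes as 3 independent experiments. The authors deposited raw counts per gene: reads were aligned to mm9 with STAR 2.4.2a, tags were handled with HOMER, keeping 1 read per position and length, and gene counts came from iRNA-seq. The cap on reads per position can flatten the highest counts. Counts were taken as deposited, through their column names. Genes passing edgeR's filter on low counts (13543 of 20295) were scaled by TMM and fitted in edgeR 4.0.16 (R 4.3.3) with 1 mean per group. SE is the log2 fold change divided by the square root of F, and log2 CPM used a prior count of 2. The study used DESeq2, here an alternative (1.42.0), with other scalings, no filter, a replicate block, the 2 groups alone, a log2 fold change of at least 1, and libraries left out. The fit was tested on simulated data.

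The members and lists were chosen with earlier results of these data known. Named genes were all members, up to 3 per list and direction with the largest passing change in ISO against DMSO and Lip+ISO against ISO, and the 5 genes most like Pfkfb3. Others that are mentioned (Bpgm, Pgam1, Slc2a4) were chosen after their values were seen. Same-numbered libraries deviated together, with a correlation over 0.1, in 17 of 18 pairs (0.037 to 0.369). The exception was ISO and Lip+ISO replicate 3, while replicates 1 and 2 of these groups gave 0.102 and 0.311. Numbers were taken to pair libraries in the other comparisons, but the main fit holds no replicate block. Its p values leave the pairing out, and results with the block are given where a member's call changed. In Lip+ISO against ISO, results with the block stand beside those without it. Lengths are those of the counted transcripts, and promoter sequence and gene names come from the NCBIM37 genome, GENCODE and RefSeq. Protein sequences were not used here.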

Additional observations from a re-analysis of the deposited data

Results flagged for a closer look

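The response to ISO differed with the inhibitors present for Slc2a1 (log2 difference of responses −1.08 ± 0.18, edgeR adjusted p = 0.0105), Pdk4 (−2.38 ± 0.29, edgeR adjusted p = 0.00171) and Hif1a (−0.72 ± 0.16, edgeR adjusted p = 0.0372), each tested as an interaction in the fit of all 12 libraries. For Pfkfb3 the difference was −2.19 ± 0.38, for Angptl4 −2.06 ± 0.19, for Fam20c −0.65 ± 0.13, for Gramd4 −0.70 ± 0.12 and for Prune −0.78 ± 0.12. These 5 genes were chosen on their levels in the same libraries, so no p is given for them. Slc2a1, Pdk4 and Hif1a were also named from these libraries, by their changes in ISO against DMSO or Lip+ISO against ISO. Their adjusted p values are therefore not free of that choice.
The Hif1a call held without Lip replicate 3 or Lip+ISO replicate 1 but was lost without any other single library, with adjusted p up to 0.344 over the 15 fits that left out libraries. The Slc2a1 and Pdk4 calls held without any single library and were lost only without replicate 2 or 3 of every group for Slc2a1 (adjusted p up to 0.277) and without replicate 2 of every group for Pdk4 (0.0759).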

How the results depend on the processing

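No change of setting turned the direction of a called result. With a log2 fold change of at least 1 also required, the members called higher went to 1 in ISO against DMSO, 1 in Lip+ISO against Lip, 0 in Lip+ISO against ISO and 1 in Lip+ISO against DMSO, and those called lower to 0 in Lip+ISO against Lip and 0 in Lip+ISO against DMSO. Without the other groups, 0 were higher in Lip+ISO against ISO, where Pfkfb2 then had an adjusted p of 0.057. In that comparison 1 member, Pfkl, became lower with library totals alone (adjusted p = 0.0333), by DESeq2 (0.0304) and with the replicate block (0.035). By number, ISO and Lip+ISO libraries deviated together for replicate 1 (correlation 0.102) and replicate 2 (0.311) but not for replicate 3 (0.037). The block is therefore given beside the fit without it. The block made 4 members higher in ISO against DMSO, with Pfkp and Hk1 added, and added Pfkp in Lip+ISO against Lip and in Lip+ISO against DMSO (adjusted p = 0.00385). It changed no other member's call. Leaving out libraries gave 1 to 4 higher members in ISO against DMSO, 1 to 2 higher and 0 to 1 lower in Lip+ISO against Lip, 0 to 1 higher in Lip+ISO against ISO and 1 to 2 higher in Lip+ISO against DMSO. Over these fits Pfkfb3 ran from −3.40 to −2.56 in Lip+ISO against ISO. By Spearman rho, 0 of the 5 genes most like Pfkfb3 remained. Library totals alone moved the median of all genes by −0.11 in Lip+ISO against Lip and the share of higher calls from 42.2% to 26.5%. Depth limits Fbp1 most, then Pfkfb2 and Pfkfb4.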
